A study of Rattus norvegicus with 8 samples.

Results

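Il1rapl1, Il1rapl2 and Il1rap of the interleukin-1 receptor family were examined together with the receptor phosphatases Ptprd, Ptprs and Ptprf and the leucine-rich repeat proteins Lrrtm3, Lrrtm4 and Slitrk5. These 9 genes were 9 of the 18003 gene symbols in the data and carried 297 of the 98356 alternative polyadenylation (APA) sites, and none of the 9 was absent. They were chosen by a readout of the same data. Il1rapl1 was selected on the cannabis against air values of its sites, some of which had been seen to be lower and others higher, and the other 8 genes were added as its relatives, its binding partners or their close kin. The values of the contrast below are therefore given as a description, with counts of sites past a threshold beside the same share of all sites and with no P for a single gene or site.

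In WTTS-Seq a read starts where 1 RNA molecule was cleaved and given its poly(A) tail, which is called an APA site, and a gene can have many such sites. The libraries were made from RNA of the hypothalamus, named as its mediobasal part in the description of the series, of adult male Long-Evans rats. In 1 group of 4 rats (cannabis, replicates 1, 2, 3 and 5) vaporized cannabis plant matter was given in a chamber for 10 min, and in the other 4 rats (air controls, replicates 1 to 4) the same apparatus was run with an unfilled vaporizer. All rats were free-feeding and had their food removed for the 1 hr between exposure and tissue collection.

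IL1RAPL1 and IL1RAPL2 are adhesion proteins of the postsynaptic membrane that belong to the interleukin-1 receptor family, and loss of human IL1RAPL1 causes an X-linked intellectual disability. Across the synaptic cleft IL1RAPL1 binds PTPδ, the product of Ptprd, which with PTPσ (Ptprs) and LAR (Ptprf) forms the LAR group of presynaptic receptor tyrosine phosphatases. SLITRK proteins bind the same phosphatases, IL-1RAcP (Il1rap) does so besides its role as the accessory chain of the interleukin-1 receptor, and LRRTM proteins are postsynaptic organizers that bind neurexins and, for LRRTM4, heparan sulfate proteoglycans.

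Depth and makeup of the libraries limit what can be said of these genes. The libraries had from 1159811 reads on sites in air control 4 to 3706778 in cannabis 2, and 1 read was worth from 0.664 to 1.99 normalized counts. Air control 4 and cannabis 1 had the most sites without a read, 26.1% and 17.0% against 3.32% to 10.3% in the other 6 libraries. Thinned to 1159811 reads, these libraries had 72655 and 72905 sites with a read. Cannabis 5 was then close to them with 74480, and the others had 77743 to 80741. The summed level of 11 hypothalamic markers (Npy, the 12th listed, had no site) was 3387 to 5732 normalized counts in the air controls and 7527 to 9618 in the cannabis libraries. That of 8 of 10 listed markers of midbrain dopamine neurons (En2 and Foxa2 had none) was 705 to 924 against 190 to 360. The totals of 1 of these 11 hypothalamic and 3 of these 8 dopamine neuron markers did not overlap between the groups, against 1.98% of all totals. Avp and Oxt are among the hypothalamic markers, and the paper reports a distal site of each as higher in cannabis. Slc6a3, Th and En1 are among the dopamine neuron markers, and the paper reports a site of each as lower. A sum can follow its highest members, so neither sum is a measure of its tissue or cell type as a whole. Endothelial markers also did not overlap in their sum (81.1 to 88.0 against 93.0 to 115), though 0 of their 3 totals separated. The sums for neurons, astrocytes, oligodendrocytes, their precursors, microglia, choroid plexus and pituitary overlapped. The part of tissue makeup in the values below was not tested, and in bulk RNA fewer cells of a type cannot be told apart from less RNA per cell.

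All 9 genes were read in all 8 libraries, and their levels covered a range from Ptprs, with a mean of 1093 normalized counts over its sites, down to Lrrtm3 with 28.9. The sum of a gene's sites is taken to count RNA 3′ ends, so levels of different genes were compared without division by transcript length. Reads primed inside a transcript rather than at its poly(A) tail would add to a level and to a number of sites. Their part was not tested. Next to Ptprs came Ptprd (769), Il1rapl1 (672), Lrrtm4 (650) and Il1rapl2 (414), and far below these were Ptprf (104), Il1rap (47.0) and Slitrk5 (30.6). Among all 18003 symbols the mean totals of the first 5 lay between the percentiles 95.7 and 98.9, and that of Lrrtm3 lay at 54.3. Of the 8 neighbouring pairs in this order, 5 differed in the exact two-sided sign-flip permutation test over the 8 libraries at an adjusted P of 0.0125. The raw P of each of these pairs was 0.0078, the smallest that 8 libraries allow, and it measures the spread between these rats. Ptprs exceeded Ptprd 1.42-fold, Lrrtm4 exceeded Il1rapl2 1.57-fold, Il1rapl2 exceeded Ptprf 4.16-fold, Ptprf exceeded Il1rap 2.15-fold and Il1rap exceeded Slitrk5 1.52-fold, each in 8 of 8 libraries.

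The remaining 3 pairs did not differ beyond their spread. Ptprd was above Il1rapl1 in 6 of 8 libraries (1.15-fold, adjusted P = 0.104, exact sign-flip permutation test), and without cannabis 1 this pair reached an adjusted P of 0.0417. Il1rapl1 was above Lrrtm4 in 4 of 8 libraries (1.04-fold, adjusted P = 0.420) and Slitrk5 was above Lrrtm3 in 6 of 8 (1.04-fold, adjusted P = 0.680) in the same exact test. Leaving out air control 1 put Lrrtm3 above Slitrk5, and Il1rap against its new neighbour then had an adjusted P of 0.050, so that 4 pairs passed. The order depended on which sites were summed. By site 1 alone it was Ptprs, Ptprd, Il1rapl2, Ptprf, Lrrtm4, Il1rapl1, Slitrk5, Il1rap and Lrrtm3, so that Il1rapl2 (227 normalized counts) stood above Lrrtm4 (76.1) and Il1rapl1 (66.7), Slitrk5 (18.0) above Il1rap (13.9), and Ptprs was 2.21 times Ptprd. With sites of a mean of at least 10 alone, Lrrtm4 stood above Il1rapl1 and Il1rap above Slitrk5 in 6 of 8 libraries (adjusted P = 0.125, exact sign-flip permutation test), which no longer passed. The 4 air controls taken alone could not have gone below P = 0.125 in this exact test.

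**Figure D1:**
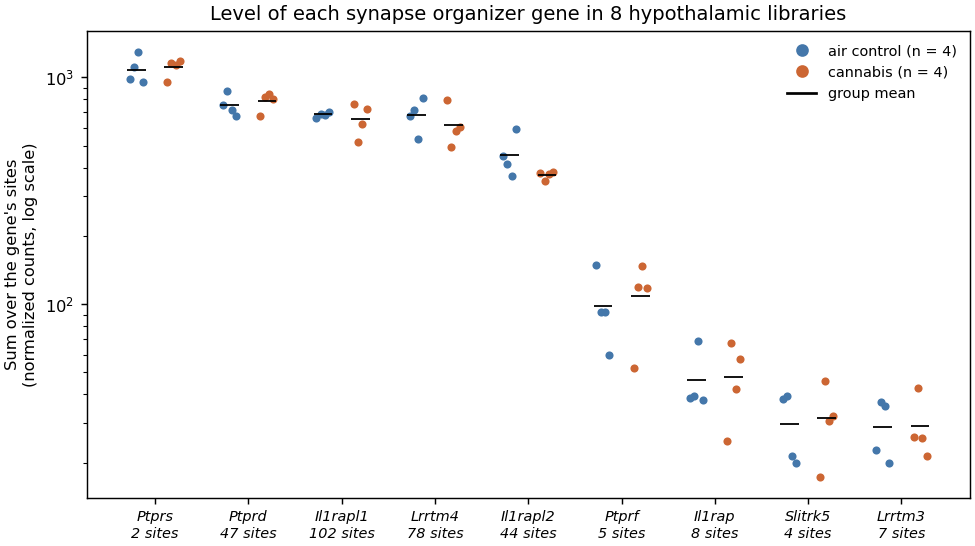
Sum over the sites of each gene in every library (normalized counts, log scale), with blue points for 4 air controls, orange points for 4 cannabis libraries and a bar for each group mean. Genes are ordered by their mean over all libraries, from Ptprs (1093) to Lrrtm3 (28.9), and for every gene the points of both groups overlap.

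Genes of like level differed in their number of sites. Il1rapl1 had 102 sites, more than all but 9 of the 18003 symbols, Lrrtm4 had 78, Ptprd had 47 and Il1rapl2 had 44, whereas a median symbol had 2 sites and 39.0% of symbols had 1. Ptprs, the highest of the 9 genes, had 2 sites, and Il1rap had 8, Lrrtm3 had 7, Ptprf had 5 and Slitrk5 had 4.

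The many sites were used in different ways. In Il1rapl1 the best-read site held 9.94% of the gene's normalized counts, and 13 sites were needed to reach 50%. Lrrtm4 was like it, with 11.7% on its best-read site and 10 sites to reach 50%. In Ptprd, by contrast, the best-read site alone held 64.1% and in Il1rapl2 54.9%. Of the 78 symbols with at least 40 sites, whose median for this share was 12.6%, only 1 had a higher share than Ptprd and 2 had a higher share than Il1rapl2. Expressed as the number of equally used sites that would give the same concentration (the inverse of the summed squared shares), Il1rapl1 had 30.1, Lrrtm4 23.9, Il1rapl2 3.22 and Ptprd 2.41, against a median of 21.8 for the 78 symbols. Among the genes with few sites, Ptprs had 99.6% of its counts on 1 site and Ptprf 79.8%, while Lrrtm3 had 21.3% on its best-read site and 6.21 equally used sites of 7.

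**Figure D2:**
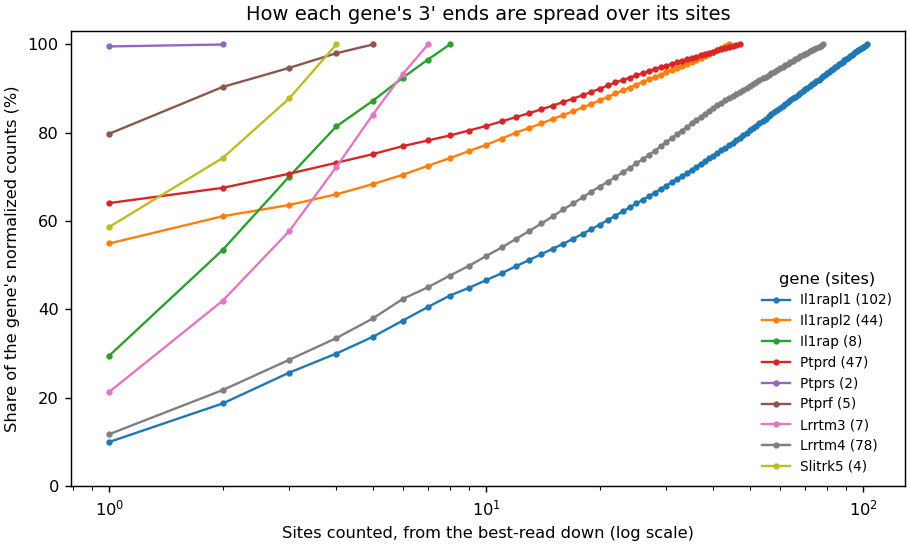
Cumulative share of each gene's normalized counts (%, mean over 8 libraries) against the number of sites counted from the best-read down (log scale), with the number of sites of each gene in the key. Ptprs starts at 99.6% and Ptprd at 64.1% on the first site, whereas Il1rapl1 starts at 9.94% and needs 13 sites to reach 50%.

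Sites are named below by their rank within the gene, site 1 having the highest mean over all 8 libraries. Positions on the Rnor_6.0 genome were known for 4 member sites. Ptprs site 1 lay at chr9:10646813-10647246 on the plus strand, within 2 kb downstream of an annotated transcript, and Ptprd site 1 lay at chr5:92862204-92862248 on the minus strand, overlapping an exon at the transcript end. Il1rapl2 site 1 lay at chrX:109187303-109187304 on the minus strand and Il1rapl1 site 32 at chrX:55716833-55716840 on the minus strand, both within introns. The best-read sites of these phosphatases were thus at or just past transcript ends, and that of Il1rapl2 was not. No location was known for the other 293 sites, and their sequence was not analysed here.

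The 297 sites held 33485 reads over the 8 libraries, 0.161% of all reads on sites. A median member site had 33 reads over 8 libraries, close to the 34 of all sites, and the fewest was 16. Only 44 of the 297 sites had a mean of at least 10 normalized counts and 80 had at least 16 reads in a single library, so that most single sites of Il1rapl1 and Lrrtm4 rested on a few reads per library. Of the 102 Il1rapl1 sites 12 had a mean of at least 10, and 50 had a read in all 8 libraries. When each library was thinned to 1159811 reads, 69 to 84 of the Il1rapl1 sites had a read in the cannabis libraries and 78 to 85 in the air controls, and as sequenced these ranges were 81 to 98 and 78 to 100.

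Differences between groups were fitted with limma on log2(normalized count + 1), a scale on which the change of a site with few reads is understated. At P under 0.01 in this fit, 1 member site was lower and 1 was higher in cannabis, 0.337% of the 297 sites each, and both belonged to Il1rapl1. Of all 98356 sites 0.258% were called lower and 0.123% higher by that threshold. At an adjusted P under 0.1 no member site was called, against 0.00102% of all sites, which is 1 site. DESeq2, edgeR and limma-voom on the recovered reads also called 0 member sites at that adjusted threshold, against 4, 1 and 1 of all sites. At an unadjusted P under 0.05 limma called 4 lower and 3 higher, 1.35% and 1.01% of the 297, against 1.76% and 1.27% of all sites. For 6 member sites (2.02%) the groups did not overlap, 3 lower and 3 higher, and this was so for 2% of all sites. Since Il1rapl1 was selected on this contrast, nothing is read from these shares.

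Il1rapl1 site 32 was the site that was lower. The paper lists an intronic Il1rapl1 site with the same average reads as lower in cannabis. Both rest on the same libraries, so this is no separate observation. Its normalized counts were 10.2, 14.4, 11.4 and 1.99 in air controls 1 to 4 and 0, 0.664, 0.984 and 0 in cannabis 1, 2, 3 and 5. Every air control was above every cannabis library, and air control 4, with 1 read, came closest to them. The means were 9.50 and 0.412 (log2 fold change −2.73 ± 0.63, SE). In reads the difference was 44 against 2, a depth-corrected ratio of cannabis to air of 0.0405. The site was picked on this same contrast, so its difference is large by selection. The site held 1.39% of the gene's counts in the air controls and 0.071% in cannabis, so that it made up a small part of Il1rapl1 in either group.

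Il1rapl1 site 69 was the site that was higher. Its values were 0.731, 0, 2.01 and 0 normalized counts in the air controls and 4.97, 6.64, 2.95 and 3.84 in cannabis 1, 2, 3 and 5. The groups did not overlap, although air control 3 lay within 1 normalized count of cannabis 3. With means of 0.686 and 4.60 the log2 fold change was 1.85 ± 0.62 (SE), from 4 and 22 reads (depth-corrected ratio 4.90). This site too was picked on the contrast. Its share of the gene was 0.101% in the air controls and 0.733% in cannabis. The call was held in 2 of 8 fits with 1 library left out, those without air control 3 or without cannabis 3, and was not made by DESeq2, edgeR or limma-voom on the reads. Without air control 4 and cannabis 1 the log2 fold change was 1.60 and the site was not called.

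Just outside the threshold were sites 30 and 6 of Il1rapl1. Site 30 is named because of its place there, and site 6 by its rank as well. Site 30 had 5.85, 3.59, 4.70 and 19.9 normalized counts in the air controls and 0, 1.99, 1.97 and 2.30 in the cannabis libraries, again without overlap (28 against 8 reads, depth-corrected ratio 0.255). Its log2 fold change of −1.75 became −0.87 without air control 4 and cannabis 1, and the site was called only without air control 2 among the fits with 1 library left out. Site 6 had 3.66, 33.5, 17.5 and 5.96 in the air controls and 57.1, 31.2, 32.5 and 15.4 in cannabis. Here the groups overlapped, since air control 2 exceeded 3 of the cannabis libraries. The share of site 6 in the gene was 2.2% in the air controls and 5.21% in cannabis.

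**Figure D3:**
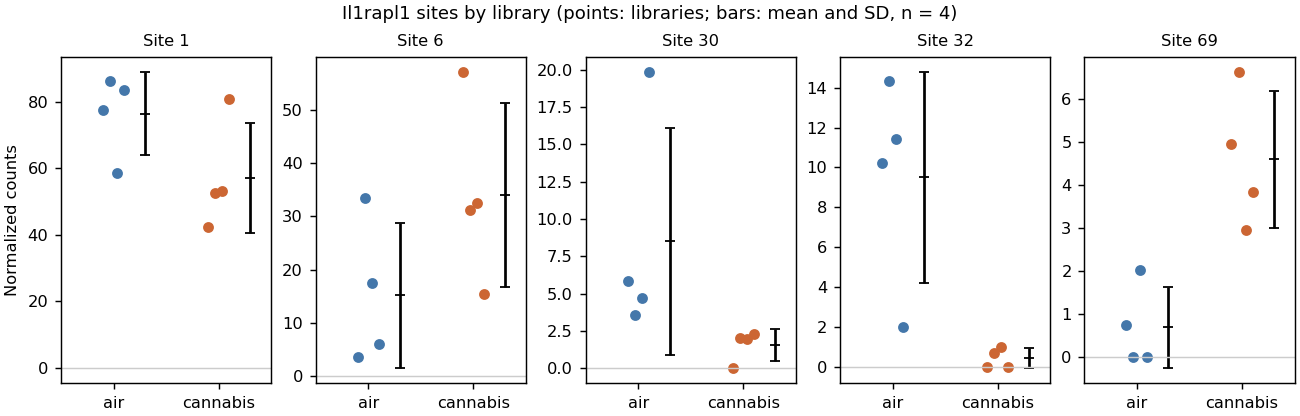
Normalized counts of Il1rapl1 sites 1, 6, 30, 32 and 69 in each library, on a separate linear axis for each site, with blue points for air controls, orange points for cannabis and a bar for the mean and SD of each group (n = 4). At sites 30, 32 and 69 the groups do not overlap, at site 32 with means of 9.50 and 0.412, and at sites 1 and 6 they do.

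The best-read sites of Il1rapl1 did not separate the groups. Site 1 had 77.5, 86.2, 58.4 and 83.4 normalized counts in the air controls and 42.2, 52.5, 53.1 and 80.6 in cannabis (log2 fold change −0.44 ± 0.35). In site 1, 3 of the cannabis libraries were below every air control and cannabis 5 was not. The share of site 1 in the gene was 11.1% ± 1.77 in the air controls and 8.83% ± 2.45 in cannabis (SD, n = 4). Sites 2 to 5 had log2 fold changes of 0.06, −0.03, −0.14 and 0.29 with SE of 0.43, 0.42, 0.44 and 0.47. In sites 2 and 3 the highest library was cannabis 1 and the lowest was cannabis 2, so the spread within the cannabis group covered that of the air controls. The other member sites whose groups did not overlap were Il1rapl1 sites 15 and 19, both higher in cannabis, and Lrrtm3 site 4, which was lower, and they are named after their values were seen.

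Over the 102 Il1rapl1 sites, differences in both directions largely offset each other in the sum. The mean in cannabis was below that of the air controls in 60 sites, which together held 123 fewer normalized counts, and above it in 42 sites, which held 94.8 more. The net difference was −28.6, or −4.16% of the mean of 686 in the air controls. The largest difference in each direction came from sites 1 (−19.3) and 6 (18.9). Offsetting of this kind was also present in Lrrtm4 (−127 and 58.5), in Ptprd (−51.5 and 79.6) and, less evenly, in Il1rapl2 (−104 and 20.5). Sites in both directions were part of how Il1rapl1 was chosen, and the part of counting error in these sums was not tested.

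**Figure D4:**
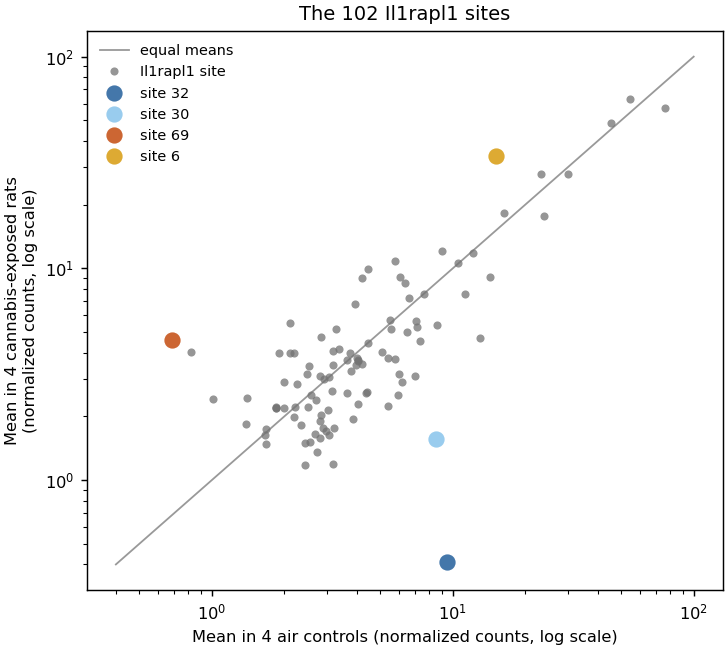
Mean normalized count of each of the 102 Il1rapl1 sites in 4 air controls (horizontal, log scale) and in 4 cannabis libraries (vertical, log scale), with the line of equal means. Points lie on both sides of the line, and site 32 (9.50 and 0.412) and site 69 (0.686 and 4.60) are farthest from it among the marked sites.

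The use of Il1rapl1 sites differed as much between rats of 1 group as between groups. The distance between a pair of libraries was taken as the percentage of the gene's counts that would have to be moved to another site to make their shares equal. For Il1rapl1 it was 30.3% on average over 6 pairs of air controls, 30.8% over 6 pairs of cannabis libraries and 30.5% over the 16 pairs across groups, with ranges of 24.8% to 35.5%, 26.2% to 38.1% and 23.6% to 40.5%. In Lrrtm4 the means were 31.1%, 37.3% and 31.2%, in Ptprd 16.5%, 15.0% and 14.9%, and in Il1rapl2 28.3%, 19.8% and 22.7%. In none of these 4 genes was the mean across groups above both means within groups. These distances hold counting error, which is large for sites with few reads.

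The sum over all Il1rapl1 sites was 662, 692, 685 and 705 normalized counts in the air controls and 762, 521, 624 and 722 in cannabis 1, 2, 3 and 5. The air controls lay close together, and the cannabis libraries spread on both sides of them. The means were 686 ± 18.2 and 657 ± 108 (SD, n = 4; log2 fold change −0.08 ± 0.19, SE).

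Il1rapl2, the close relative of Il1rapl1 on the same chromosome, had totals of 450, 417, 367 and 590 in the air controls and 378, 349, 376 and 384 in cannabis. Air control 4 was the highest library and air control 3 lay among the cannabis libraries (456 ± 95.7 and 372 ± 15.3, log2 fold change −0.27 ± 0.20). Most of the height of air control 4 came from site 2, named after its values were seen, which had 143 normalized counts there and from 0.768 to 19.0 in the other 7 libraries. Without this site the means were 411 ± 40.3 and 365 ± 18.1. Site 1, with 274, 236, 199 and 234 in the air controls and 201, 203, 216 and 254 in cannabis, had a log2 fold change of −0.11 ± 0.27. Within a library Il1rapl1 had 1.20 to 2.02 times the counts of Il1rapl2 (median 1.66), lowest in air control 4 and highest in cannabis 1.

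Il1rap, the accessory chain of the interleukin-1 receptor, was low, with 38.7, 39.5, 68.5 and 37.7 normalized counts in the air controls and 24.8, 67.1, 42.3 and 57.6 in cannabis. Air control 3 and cannabis 2 were high alike, and the groups overlapped over nearly their whole range (46.1 ± 14.9 and 48.0 ± 18.5, log2 fold change 0.01 ± 0.34). Its site 1 had a log2 fold change of 0.29 ± 0.53.

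Among the phosphatases, Ptprd, the partner of Il1rapl1, had totals of 759, 868, 720 and 673 in the air controls and 677, 816, 840 and 800 in cannabis. Each group had its lowest value in its library with the most sites without a read, air control 4 and cannabis 1 (755 ± 82.9 and 783 ± 72.8, log2 fold change 0.05 ± 0.18). Its site 1 at the transcript end had 425, 563, 442 and 431 in the air controls and 435, 514, 597 and 535 in cannabis (0.16 ± 0.24). In this site 3 cannabis libraries were above 3 of the air controls, and air control 2 was above all cannabis libraries but cannabis 3. The remaining 46 sites together had means of 290 ± 39.1 and 263 ± 27.8.

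Ptprs had 980, 1106, 1287 and 953 normalized counts in the air controls and 951, 1153, 1138 and 1180 in cannabis. It was highest in air control 3 and lowest in cannabis 1 and air control 4 (1082 ± 152 and 1105 ± 104, log2 fold change 0.04 ± 0.18). Ptprf, the gene of LAR, had 148, 92.2, 92.0 and 59.6 against 52.2, 120, 147 and 118, again lowest in cannabis 1 and air control 4 (98.0 ± 36.9 and 109 ± 40.2, 0.13 ± 0.34). Within a library Ptprs was 1.27 to 1.79 times Ptprd, and Ptprd was 5.11 to 13.0 times Ptprf.

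Of the leucine-rich repeat genes, Lrrtm4 had totals of 673, 717, 535 and 812 in the air controls and 791, 492, 580 and 602 in cannabis. It was highest in air control 4 and cannabis 1, the reverse of the phosphatases (684 ± 115 and 616 ± 126, log2 fold change −0.16 ± 0.21). Lrrtm4 site 2, named after its values were seen, had 163 and 147 normalized counts in these libraries and from 9.96 to 63.4 in the other 6. Without this site the means of Lrrtm4 were 608 ± 82.0 and 562 ± 67.8. Site 1 of Lrrtm4 had 85.5, 86.2, 73.9 and 55.6 against 58.4, 80.4, 82.7 and 86.0 (0.03 ± 0.34), with its lowest values in the same libraries in which site 2 was highest.

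Lrrtm3 and Slitrk5 were the lowest of the 9 genes. Lrrtm3 had 22.7, 37.1, 35.6 and 19.9 normalized counts in the air controls and 26.1, 42.5, 25.6 and 21.5 in cannabis (28.8 ± 8.81 and 28.9 ± 9.29, log2 fold change 0.01 ± 0.33). Its site 4 had 6.58, 5.99, 4.70 and 3.97 against 1.24, 3.32, 3.94 and 3.84, so that the groups missed each other by less than the value of 1 read. Slitrk5 had 38.0, 39.5, 21.5 and 19.9 against 17.4, 45.8, 30.5 and 32.3 (29.7 ± 10.5 and 31.5 ± 11.6, 0.07 ± 0.36). Slitrk5 site 1 ranged from 1.24 in cannabis 1 to 33.2 in cannabis 2, and no difference between groups was detectable at that spread. Within a library Lrrtm4 had 11.6 to 40.9 times the counts of Lrrtm3.

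None of the 9 totals was called in limma at P under 0.01, and none at an unadjusted P under 0.05, while 0.278% and 2.41% of all 18003 totals were called at these thresholds. DESeq2, edgeR and limma-voom on the recovered reads also called 0 of the 9 at P under 0.01. Of all 18003 totals they called 64, 42 and 47 lower and 12 each higher. In none of the 9 did the groups separate, against 1.98% of all totals. The log2 fold changes lay between −0.27 (Il1rapl2) and 0.13 (Ptprf), with 3 totals lower and 6 higher in cannabis and a median of 0.01 against 0.05 over all totals. The 6 positive values were each below their SE, and scaling the libraries to equal totals turned those of Il1rap (−0.03), Ptprs (−0.01) and Lrrtm3 (−0.04) negative. Without air control 4 and cannabis 1 the range was −0.20 (Lrrtm4) to 0.24 (Ptprf), and Il1rapl2 was then at −0.15.

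**Figure D5:**
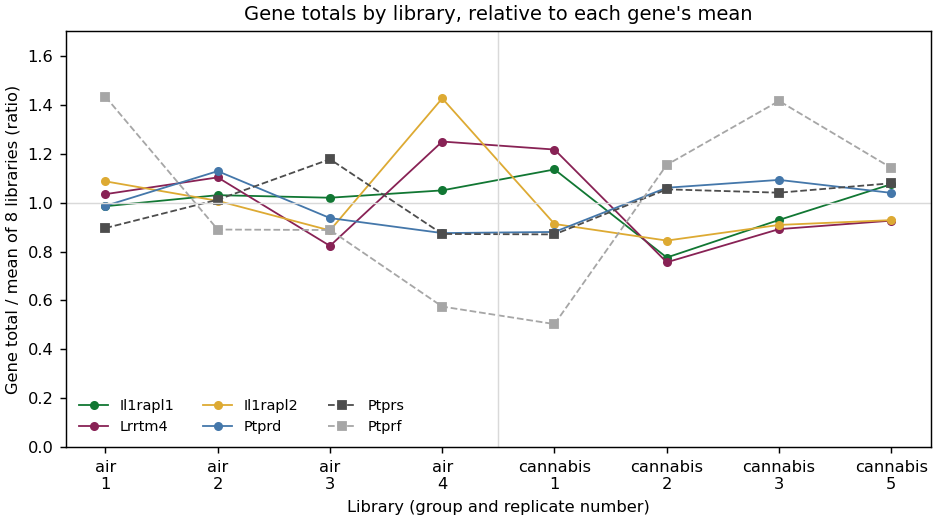
Total of 6 of the genes in each library divided by the gene's mean over the 8 libraries (ratio, linear axis), air controls on the left and cannabis on the right. Il1rapl2 reaches 1.43 in air control 4, where Lrrtm4 is at 1.25 and Ptprf at 0.575, and in cannabis 1 Ptprf is at 0.503 and Lrrtm4 at 1.22.

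Across the 8 libraries the Il1rapl1 total moved most like Lrrtm4 among the members (Pearson r = 0.72 of log2 totals), followed by Il1rapl2 (0.34), and the correlation with the other 6 lay between −0.33 (Ptprs) and −0.68 (Slitrk5). These values are a description over 8 libraries that share their depth with all the genes compared. Of 6098 other symbols with a mean total of at least 50, the most similar were Neurl2 (r = 0.957), LOC100362110 (0.920), LOC100359668 (0.919), the ribosomal protein gene Rpl37a (0.899) and Dcc, the netrin receptor gene (0.895). Dcc had 80 sites, whereas the first 3 had 1 site and Rpl37a had 2. These genes had the highest of 6098 correlations over 8 libraries, so their r is high by selection. The share of reads on the 78 symbols with at least 40 sites was from 1.67% in cannabis 2 to 2.14% in air control 1, and Il1rapl1 was lowest in cannabis 2 as well.

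By the sign of the log2 fold change in the limma fit, 172 member sites were lower and 125 higher in cannabis. Whether the split differed between genes was not tested. Lrrtm4 had 50 sites lower and 28 higher, Il1rapl1 had 59 and 43, Ptprd 26 and 21, and Il1rapl2 23 and 21 and each of the other 5 genes from 1 to 4 in either direction. By group means of the normalized counts, as used above for the offsetting, the counts were 46 and 32, 60 and 42, 27 and 20, and 25 and 19 in these 4 genes. The median log2 fold change of the 297 sites was −0.12, against 0.01 for all sites, and 57.9% of the member sites were lower against 49.1% of all sites. Sites of 1 gene in 1 library are not independent of each other. Of the 44 sites with a mean of at least 10, air control 4 was the highest library at 9 (20.5%) and cannabis 1 at 8 (18.2%), against 16.3% and 14.9% of all such sites. The median coefficient of variation of these 44 sites over the 8 libraries was 42.9%, against 41.8% of the 22164 such sites of all genes, and it was 35.6% in Il1rapl1 and 51.3% in Lrrtm4.

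Other organizers and partners of this system were given by a list of 41 genes, among them other LRRTM and SLITRK genes, netrin-G ligands, SALM, FLRT, latrophilin and calsyntenin genes, glypicans, liprins and interleukin-1 receptors. Of these 40 had sites (Lrrtm1 had none), 489 in all. Their totals were lower in cannabis in 13 and higher in 27, with log2 fold changes from −0.90 to 1.05 and a median of 0.10, and of all totals 56.4% were higher, with a median of 0.05. At P under 0.01 in limma 0 of the 40 totals were called, and 3 (7.5%, all higher) at an unadjusted P under 0.05, against 2.41% of all totals. DESeq2, edgeR and limma-voom on the recovered reads also called 0 of the 40 totals at P under 0.01. Of all totals they called 64, 42 and 47 lower and 12 each higher. At P under 0.05 each called 2 of the 40, and the share of all totals was not counted there for these tools. Of the 489 sites limma called 1 lower (0.204%, against 0.258% of all sites) and 0 higher (0.123% of all sites) at P under 0.01. At P under 0.05 it called 6 of the 489 higher, where 1.27% of all sites were called higher. DESeq2 and limma-voom called none at P under 0.01, and edgeR called 3 other sites lower, of Adgrl3 and Clstn1 (377 of all 98356 sites were lower in edgeR). The site called by limma belonged to Lrfn5, the gene of a SALM adhesion protein that binds the same phosphatases, and these sites are named after their values were seen. The Lrfn5 site had 5.12, 5.99, 7.39 and 5.96 normalized counts in the air controls and 0, 1.99, 0.984 and 3.07 in cannabis, from 26 and 8 reads (log2 fold change −1.67 ± 0.58). The Lrfn5 total over 32 sites had means of 325 ± 31.2 and 341 ± 53.9, and DESeq2, edgeR and limma-voom did not call its site.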

How the data were processed

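Per the labels, 4 cannabis-exposed and 4 air-treated rats gave 1 WTTS-Seq library each. The authors removed low-quality Ion Torrent reads (FASTX Toolkit), cut off the Ts at their start and aligned them by strand to Rnor_6.0 (NCBI annotation release 106) with TMAP 3.4.1. Read ends within 24 nt were merged into 1 APA site, a site needed 16 reads over all libraries, and Cuffcompare 2.2.1 gave each site its gene. The values the authors deposited are a signal, the normalized read count of each site (reads divided by a size factor from DESeq2), in 1 file per library. The size factors make libraries comparable, but sites with few reads stay imprecise at any scaling.

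Whole reads were recovered by dividing by the smallest step of each library, and 100% of the values came out whole to within 0.00012 reads. Libraries were joined by row, and members were taken by symbol. Gene totals are sums over sites. The design had foreseen normalized values. Site and total differences were fitted over all features in limma 3.58.1 under R 4.3.3, by lmFit and an eBayes step that follows the mean-variance trend, on log2(value + 1), with Benjamini-Hochberg adjustment over all features. DESeq2 1.42.0, edgeR 4.0.16 (quasi-likelihood test) and limma-voom on the recovered reads, a replicate block, other pseudocounts, filters and scaling, and each library left out in turn were alternatives. Leaving out air control 4 and cannabis 1 together was added after seeing the data. They were picked for high totals of members with many sites, such as Lrrtm4, so that fit is no independent check on the members. Gene levels were ordered with an exact two-sided sign-flip permutation test within libraries. The fits and the permutation test were tested on simulated data.

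The members, the gene and marker lists and the tests were chosen with earlier results of these data known. By the rule for names, all 9 genes are named, with site 1 of each, sites 1 to 6 of Il1rapl1, every member site with P under 0.01 and the 5 symbols most correlated with Il1rapl1. Other named sites were chosen after their values were seen. Positions of 4 sites were matched by symbol and values to the annotation that accompanies the study. Their strand is given as annotated, and whether it is the strand of the gene was not tested. All else was computed in Python 3.11.15 (scipy 1.17.1, pandas 2.3.3, numpy 2.4.6) and drawn with matplotlib 3.10.9.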

Additional observations from a re-analysis of the deposited data

Results flagged for a closer look

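In 50 groups of 4 libraries, made of the 9 totals and the sites described in full, the distance of the highest or lowest library to its nearest neighbour was set against the range of the group, and 2 libraries stood out by Dixon's critical value. Chance flags about 1 in 20 groups, so 2 of 50 is no more than chance gives. The Il1rap total of air control 3 was 68.5 normalized counts against 37.7 to 39.5 in the other air controls, a gap of 0.942 of the range. Ptprd site 1 had 563 normalized counts in air control 2 against 425 to 442 in the other air controls, a gap of 0.871 of the range. Neither library was the extreme one in the other gene.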

How the results depend on the processing

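No member total was called at P under 0.01 under any alternative run. The counts of member sites called at that threshold were 1 lower and 1 higher. At P under 0.05 they were 4 and 3. DESeq2 gave 1 and 0 (244 and 66 of all 98356 sites), edgeR 2 and 0 (377 and 140), limma-voom 1 and 0 (195 and 65), scaling to equal totals 2 and 1 (283 and 115), and leaving out air control 4 with cannabis 1 gave 1 and 0 (277 and 150). Sites with a mean of at least 10 gave 0 and 0 (33 and 11 of 22164) and edgeR after filterByExpr 0 and 0 (44 and 8 of 24412, 53 of them member sites), but neither filter kept sites 32 and 69, so these counts say nothing of them. The filters left 44 of the 297 sites by a mean of at least 10 and 80 by 16 reads in a single library. With 1 library left out in turn the lower count ranged from 1 to 3 and the higher from 0 to 1. It was 3 lower without air control 2 (270 lower and 161 higher of all sites) and 2 lower without cannabis 1 (446 and 148). The higher count was 0 without air control 1 (90 and 141), air control 4 (186 and 112), cannabis 1 or cannabis 2 (434 and 83). Without air control 2 or without cannabis 5 (157 and 70), the 1 member site called higher was not site 69. The cause was not tested. The log2 fold change of Il1rapl1 site 32 was −4.48 in DESeq2, −4.20 in edgeR, −3.58 in limma-voom and −1.33 with a pseudocount of 5, that of site 69 was 0.76 with a pseudocount of 5, and the other alternatives moved neither beyond the spread between replicates. With a sum over sites of mean at least 10 alone, the share differences of Il1rapl1 sites 1 and 6 were −5.46 and 5.71 percentage points. With the replicate number as a replicate block, 2 member sites were lower and 0 higher (148 and 81 of all sites), and the 6 positive log2 fold changes of totals became negative (−0.01 for Ptprd to −0.18 for Il1rap). Libraries with the same number had r from −0.23 to 0.08 over 3 pairs, against −0.35 to 0.47 over 13 pairs with different numbers. Whether the numbers pair the rats cannot be told from 3 pairs. Among all sites, leaving out air control 1 turned 254 lower and 121 higher calls into 90 and 141.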
